A study of Homo sapiens with 9 samples.

Results

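The EGF receptor family was followed through 9 genes of the table, chosen by name. They are the receptors EGFR, ERBB2 and ERBB3, the ligands AREG, EREG, HBEGF, TGFA and BTC, and the feedback inhibitor ERRFI1. These are 9 of 26869 genes, counted by symbol or, where none was found, by RefSeq identifier. They hold 21 of the 34637 distinct 3′ intervals that were counted. The data are SLAM-Seq libraries of MCF10A, an immortalised but non-tumorigenic line of human breast epithelium. The cells lacked their own JUN (JUN KO) and carried, by infection, a JUN-AID fusion and a vector for TIR1, so that the auxin indole-3-acetic acid (IAA) leads to degradation of the JUN protein. In each group the medium held 20 ng/ml EGF, horse serum, insulin, hydrocortisone and cholera toxin, so the receptor was supplied with ligand in all 3 groups. The first group had no 4-thiouridine (4sU), and its labels do not say whether it received DMSO. The second received DMSO and, after 1 h, 100 µM 4sU for 1 h. In the last group IAA at 100 µM replaced DMSO, with the same 4sU pulse. 4sU enters RNA made during the pulse, and after treatment with iodoacetamide it is read as C where the genome has T.

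Each group has 3 samples by its labels. The 3 IAA columns, however, were identical in all 56868 rows, and they were counted as 1 library. The comparison of IAA with DMSO is therefore given without a test. The study describes its replicates as biological, and p-values measure the spread between these libraries. The 7 distinct libraries held 18997637 to 24014195 reads. The cells expressed basal mammary keratins in each library (KRT5 at 519 to 709 CPM, reads scaled to library size). All 8 markers of the basal list reached 1 CPM, and their summed level was 3563 to 4632 CPM. The list includes the general epithelial marker CDH1, at 73.2 to 196 CPM. Of the 7 luminal markers 4 reached 1 CPM, with a sum of 225 to 295 CPM for the list. KRT19, ESR1 and PGR were below 1 CPM in each library. The luminal KRT18 had 64.4 to 99.7 CPM and EPCAM 112 to 156 CPM, while the basal KRT14 had only 3.63 to 10.6 CPM. The sums were 3.50 to 9.92 CPM for 3 fibroblast markers, 0.179 to 1.08 CPM for 3 endothelial markers and 0.983 to 4.19 CPM for 3 blood markers, with COL1A2, VWF, CDH5, PTPRC and CD3E at 0. JUN itself had 48.1, 57.6 and 45.0 CPM without 4sU, 30.2, 20.3 and 25.6 CPM with DMSO and 4sU, and 62.9 CPM with IAA. IAA acts on the fusion protein, so the mRNA level does not check the depletion. The JUN interval of 1287 bases equals the annotated 3′ untranslated region of the gene in length. Whether the fusion vector holds that sequence is not stated, so whether these reads come from the fusion mRNA is not known.

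EGFR, ERBB2 and ERBB3 are receptor tyrosine kinases that pair with each other once a ligand is bound, and they signal through RAS and through PI3K and AKT. ERBB2 has no ligand of its own, and ERBB3 depends on its partner's kinase. The ligands are made as membrane-bound precursors and are released by proteases such as ADAM17. ERRFI1 (MIG6) binds the EGFR kinase and restrains it, and its gene is switched on by EGFR signalling. In mammary epithelium AREG is a mediator of ductal growth, and several ligand mRNAs of this family are short-lived immediate early or delayed early transcripts.

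The libraries read the 3′ end of each mRNA, so the sequence that carried the label lies in the 3′ untranslated region. The intervals have no coordinates in the table, and they were placed at the first base of the annotated 3′ UTR on GRCh37, in the last exon, with the deposited length. The placed length was within 11 bases of the annotation for 7 of the 9 genes. The EGFR interval of 1724 bases covers the first part of an annotated 6014 bases, and that of BTC 438 of 1917 bases. AU-rich pentamers (ATTTA, the core of AU-rich elements, counted on the mRNA strand with overlaps) were counted in each interval. The 30-base stretch with the most of them is shown for 6 genes that gave called changes in the label, with the pentamers in capitals. The stretches lie at chr4:75320649-75320678 (AREG, plus strand), chr4:75253087-75253116 (EREG, plus), chr5:139713251-139713280 (HBEGF, minus), chr2:70674610-70674639 (TGFA, minus), chr1:8071790-8071819 (ERRFI1, minus) and chr7:55273564-55273593 (EGFR, plus).
AREG: aagttgtaaataATTTATTTAatATTTAat
EREG: ATTTAtttcATTTAcaaaagATTTAttgta
HBEGF: tATTTAttttattctatgtatgttaATTTA
TGFA: aaaaggttaatATTTAatgttttaATTTAt
ERRFI1: tcattttaataaagttataatacttATTTA
EGFR: aaATTTAtctttcaaagaggtatatttgaa

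AREG held 4 pentamers in 251 bases, or 15.9 per 1000 bases, a density above that of 99.9% of 6913 placed genes. BTC had 6.85 and EREG 5.06 per 1000 bases. TGFA, HBEGF and ERRFI1 had 3.63, 3.48 and 3.35 per 1000 bases, against a median of 1.85 over the placed genes. The receptors were lower, with 1.74 for EGFR and 1.37 for ERBB3, and ERBB2 had none, while 76.3% of placed genes had at least 1. All 5 ligands and ERRFI1 thus lay above the median density and all 3 receptors below it. Over the 6913 placed genes the density and the labelled conversion rate had a Spearman's rho of -0.0076, across genes of the same libraries, which are not independent replicates.

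The first comparison was of DMSO with 4sU against no 4sU, and it shows which of these mRNAs gained T>C conversions within 1 h. Of the 9 genes, 8 had a rate above 0 in enough libraries to be tested, and 6 of the 8 had a higher rate with 4sU (limma on the log2 rate, adjusted p under 0.05). Of all 10853 genes tested, 50.4% were called higher, so labelling as such was common. The median log2 change was 2.41 over the 8 genes and 1.25 over all genes tested. Fold sizes are on the scale log2(rate + 0.0005), which understates changes from low rates.

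**Figure D1:**
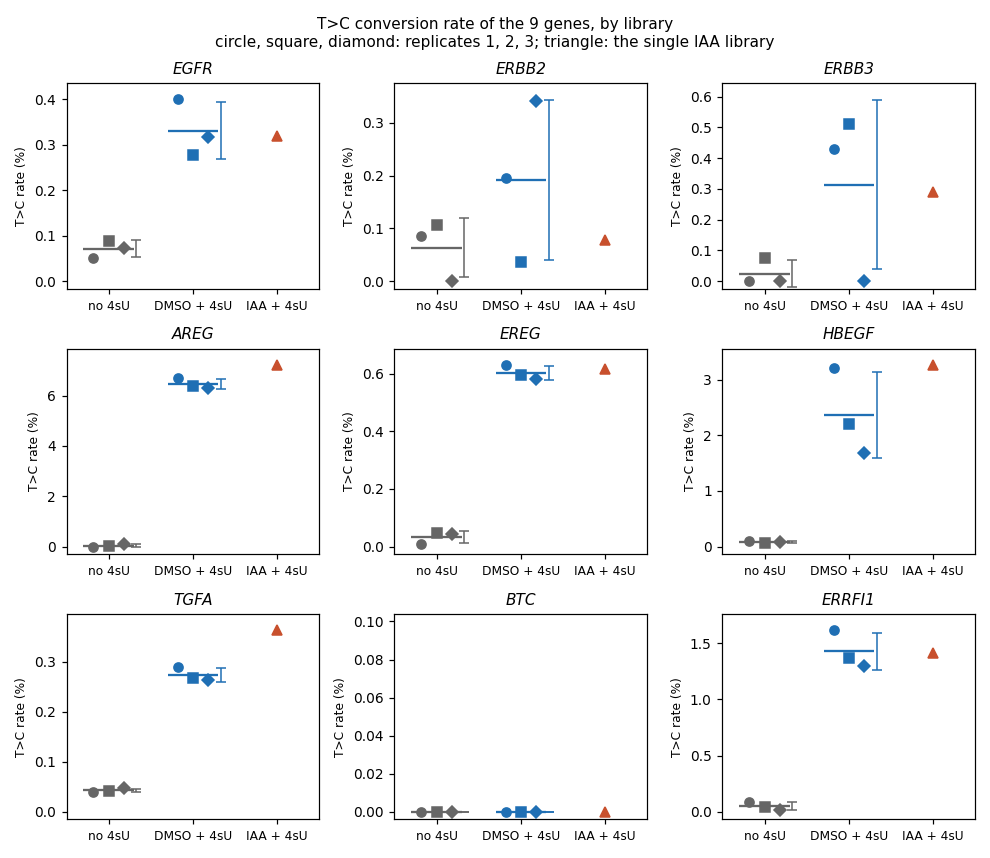
T>C conversion rate (%, vertical axes, each panel with its own scale) of the 9 genes in each library, grouped as no 4sU, DMSO + 4sU and IAA + 4sU. Lines are means and bars SD of 3 libraries. AREG, HBEGF and ERRFI1 reach over 1% in each labelled library, BTC is at 0 throughout, and ERBB2 and ERBB3 overlap between groups.

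AREG, which encodes amphiregulin, had the highest rate of the 9 genes. Its rate was 0, 0.0325 and 0.0863% without 4sU and 6.68, 6.40 and 6.29% with DMSO and 4sU. No library without 4sU came near the labelled ones. The mean of 6.46% ± 0.202 (SD, n = 3) exceeded that of 99.2% of the genes tested, and the log2 change was 6.30 ± 0.46 (SE; adjusted p = 0.00066). These rates rest on 35 to 247 reads per library. AREG has a near-identical copy on this build (AREG at chr4:75310853-75320722 and AREGB at chr4:75480629-75490486, both plus strand), and reads can be split between them. The intervals have no coordinates, so which copy each belongs to is not known. The other interval of equal length, here called the second copy, gave 0.317, 0.0962 and 0.0346% without 4sU. It gave 6.59, 5.02 and 4.53% with DMSO and 4sU, so the labelled rate was above 4% at both.

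HBEGF, heparin-binding EGF-like growth factor, came next. Its rate was 0.106, 0.0727 and 0.0786% without 4sU and 3.21, 2.21 and 1.68% with DMSO and 4sU, from 1169 to 2249 reads per library in those 6. The labelled libraries differed among themselves nearly as 3.21 to 1.68, the widest spread in percentage points of the 9 genes. The log2 change was 4.11 ± 0.38 (SE; limma, adjusted p = 0.0011), and the mean rate of 2.37% ± 0.778 (SD, n = 3) lay above 96.2% of genes.

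ERRFI1, the inhibitor, followed with 0.0918, 0.0445 and 0.0207% without 4sU and 1.61, 1.37 and 1.30% with DMSO and 4sU. Its log2 change was 3.90 ± 0.38 (SE; limma, adjusted p = 0.0013), and its mean lay above 93.0% of genes. EREG (epiregulin) had 0.00803, 0.0463 and 0.0437% without 4sU and 0.629, 0.596 and 0.582% with DMSO and 4sU. Its labelled libraries were close to each other, its log2 change was 3.02 ± 0.32 (SE; limma, adjusted p = 0.0016), and its mean lay above 81.0% of genes.

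TGFA, transforming growth factor alpha, had 0.0404, 0.0424 and 0.0467% without 4sU and 0.288, 0.267 and 0.262% with DMSO and 4sU. EGFR had 0.0518, 0.0891 and 0.0741% without 4sU and 0.401, 0.276 and 0.316% with DMSO and 4sU. Both were well counted, with 1781 to 2589 reads per library, and in neither did the groups overlap. The log2 change was 1.79 ± 0.22 for TGFA (SE; limma, adjusted p = 0.0023) and 1.65 ± 0.29 for EGFR (SE; limma, adjusted p = 0.0062). Their mean rates of 0.272% and 0.331% lay above 55.0% and 63.4% of genes, near the middle of all mRNAs. With the mean over all distinct intervals of a gene, which includes isoforms of EGFR with fewer than 12 reads per library, the EGFR call was lost (log2 change 2.53, adjusted p = 0.052).

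ERBB2 and ERBB3 were not called. ERBB3 had 0, 0.0745 and 0% without 4sU and 0.431, 0.510 and 0% with DMSO and 4sU, from 61 to 116 reads per library. A library at 0 stood in both groups, and the log2 change of 1.81 had a 95% interval from -0.61 to 4.23 (limma, adjusted p = 0.17). Without DMSO replicate 3, the labelled library at 0, ERBB3 passed the test (log2 change 2.94, adjusted p = 0.012). ERBB2 had 0.0851, 0.106 and 0% without 4sU and 0.196, 0.0373 and 0.341% with DMSO and 4sU, from 134 to 323 reads. These groups overlapped too, with a log2 change of 1.00 and an interval from -0.68 to 2.67 (limma, adjusted p = 0.25). BTC (betacellulin) had a rate of 0 in all 7 libraries, from 10 to 40 reads each. The number of T positions read is unknown, so no limit can be set on its rate.

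In order of the labelled rate, AREG, HBEGF, ERRFI1 and EREG stood apart: the lowest DMSO library of each exceeded the highest of each gene below it. The ranges of EGFR, TGFA, ERBB3 and ERBB2 overlapped in percent, although EGFR exceeded TGFA in each DMSO library. The 3 libraries with DMSO and 4sU lay all above the 3 without 4sU for 6 of the 9 genes, and for 63.0% of all genes tested.

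**Figure D2:**
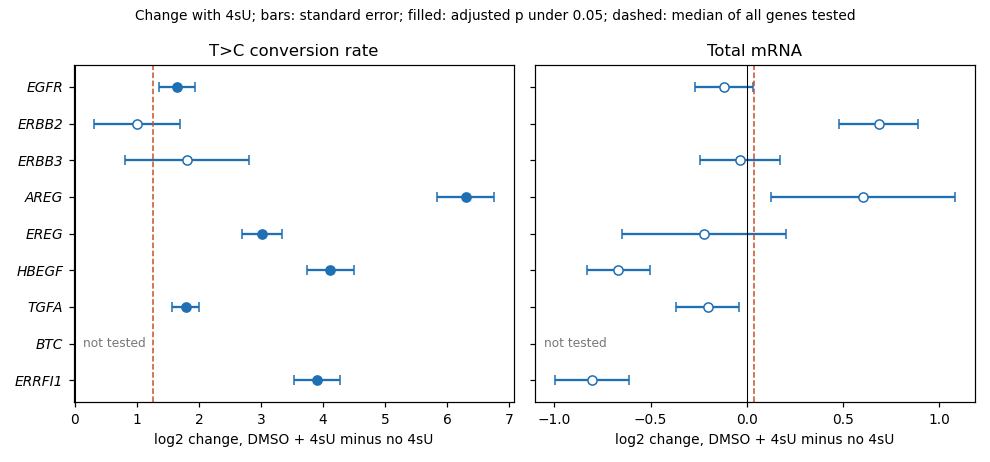
log2 change with 4sU (horizontal axes) in the conversion rate, left, and in total mRNA, right, with standard errors from 3 against 3 libraries. Filled points have an adjusted p under 0.05 and dashed lines are the median of all genes tested. In the rate 6 genes are filled, led by AREG at 6.30, and in total mRNA none is.

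Total mRNA was compared in the same 6 libraries, as log2(CPM + 1) with TMM library sizes, to see whether the levels themselves differed with 4sU. None of the 9 genes was called in either direction by limma or by edgeR on the recovered reads. Of 11433 genes tested, 195 were lower (1.71%) and 0 were higher (0.0%). At an unadjusted p under 0.05, 869 genes were lower and 295 higher, and 3 of the 8 tested genes of the family were among them, HBEGF and ERRFI1 lower and ERBB2 higher. In these bulk libraries fewer cells of a type and less RNA per cell cannot be told apart.

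HBEGF had 111, 80.4 and 74.6 CPM without 4sU and 54.9, 54.0 and 60.0 CPM with DMSO and 4sU, a log2 difference of -0.67 ± 0.16 (SE; limma, adjusted p = 0.097). ERRFI1 had 18.4, 18.4 and 18.8 CPM without 4sU and 11.5, 7.95 and 12.5 CPM with DMSO and 4sU, a log2 difference of -0.81 ± 0.19 (SE; limma, adjusted p = 0.084). With the replicate number as a block, limma gave an adjusted p of 0.074 for HBEGF and 0.061 for ERRFI1, and neither was called. In both genes each labelled library was below each unlabelled one, as in 10.7% of all genes tested. DESeq2 on the recovered reads called both lower (adjusted p = 0.0095 for HBEGF and 0.011 for ERRFI1), and it called 400 genes lower and 3 higher. JUN was lower as well, a difference that limma called (log2 change -1.01 ± 0.19, SE, adjusted p = 0.028) but not after leaving out DMSO replicate 2 or 3 or no 4sU replicate 2 or 3 (log2 changes -0.86, -1.03, -0.90 and -1.05, adjusted p 0.11, 0.13, 0.18 and 0.11). The call was also lost without a filter on CPM and with edgeR and the replicate block (adjusted p = 0.055 for both).

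ERBB2 had 6.67, 5.99 and 7.53 CPM without 4sU and 15.2, 9.62 and 11.0 CPM with DMSO and 4sU. Each labelled library was above each unlabelled one, as in 7.23% of genes, with a log2 difference of 0.68 ± 0.20 (SE; limma, adjusted p = 0.20). With the replicate number as a block, limma gave ERBB2 an adjusted p of 0.13. EGFR had 125, 95.0 and 93.7 CPM without 4sU and 96.3, 96.6 and 102 CPM with DMSO and 4sU, and TGFA 92.6, 116 and 107 against 88.2, 98.1 and 94.2 CPM. The groups overlapped in both, and the 95% intervals of the log2 difference were -0.46 to 0.22 for EGFR and -0.57 to 0.16 for TGFA. ERBB3 had 2.84 to 5.73 CPM and BTC 0.499 to 1.67 CPM over the 7 libraries, and BTC was under the minimum for the test.

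**Figure D3:**
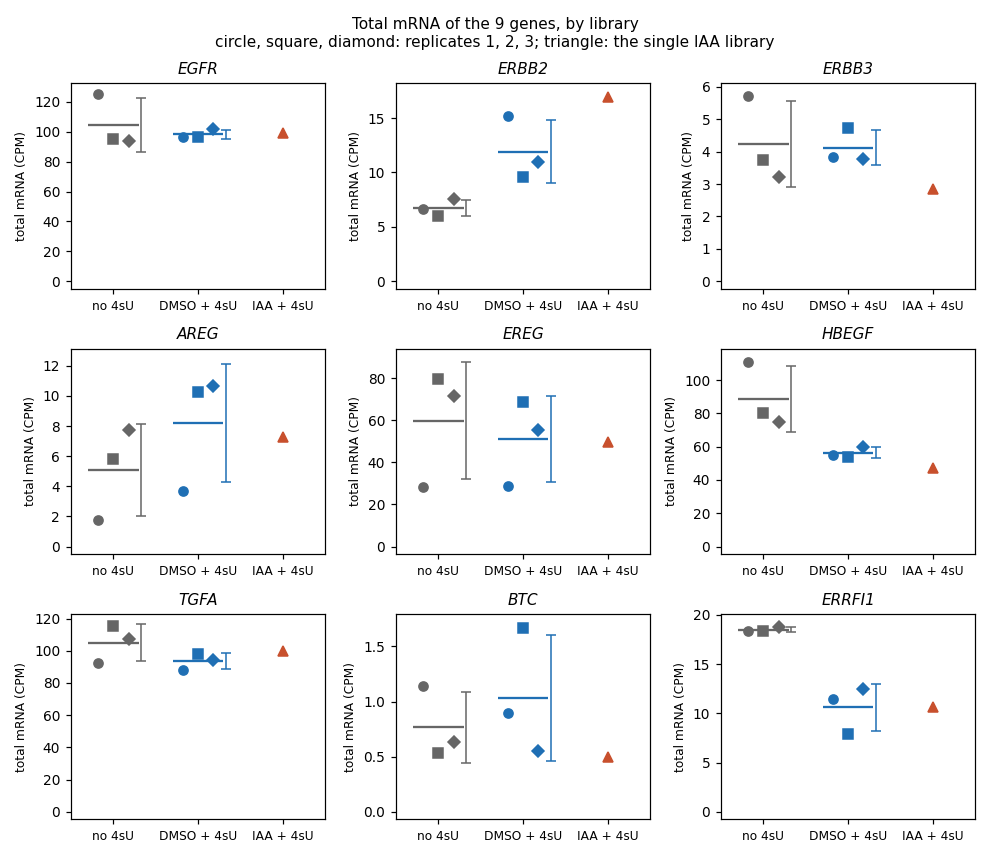
Total mRNA (CPM, vertical axes, each panel with its own scale) of the 9 genes by library, with means as lines and SD of 3 libraries as bars. Replicate 1 (circles) is the lowest of its group for AREG and EREG both without 4sU and with DMSO and 4sU, and HBEGF and ERRFI1 are lower in each labelled library than without 4sU.

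AREG and EREG differed most between replicate numbers. AREG had 1.73, 5.81 and 7.74 CPM without 4sU and 3.71, 10.3 and 10.7 CPM with DMSO and 4sU, and EREG 28.4, 79.8 and 71.6 against 29.0, 68.8 and 55.6 CPM. Replicate 1 was the lowest in both groups for both genes. Its log2 difference from the mean of the other two was -1.59 for AREG without 4sU and -1.29 with DMSO and 4sU, and for EREG it was -1.51 and -1.08. EPGN (epigen), another EGFR ligand, was also lower in replicate 1, with log2 differences of -1.11 and -0.89. It was picked singly from outside the genes followed here. Of the other ligands, HBEGF had 0.39 and -0.06 and TGFA had -0.39 and -0.13. A step of at least 0.5 log2 units below both other replicates in both groups was found in 2 of the 8 genes tested and in 1.43% of all genes. This measure was chosen after the values were seen, and no test was made. The log2 difference with 4sU was 0.60 ± 0.48 for AREG and -0.22 ± 0.43 for EREG (SE; limma, adjusted p = 0.74 and 0.90). At the interval used, AREG was higher with 4sU in each of the 3 same-numbered pairs. The second copy had 3.31, 6.52 and 6.95 CPM without 4sU and 2.63, 9.45 and 7.82 CPM with DMSO and 4sU. There replicate 1 went the other way. With the sum over distinct intervals the log2 difference of AREG was 0.35 (limma, adjusted p = 0.88). With the replicate number as a block the SE was 0.17 for AREG and 0.14 for EREG (adjusted p = 0.15 and 0.47), and neither was called. Leaving out 1 library breaks a pair and moved both values: that of EREG became positive without DMSO replicate 1 (0.12) and without no 4sU replicate 2 or 3 (0.06 and 0.0021), and that of AREG fell to 0.07 without no 4sU replicate 1. In the labelled rates AREG had 6.68% and EREG 0.629% in DMSO replicate 1, the highest of their 3 values, and that library also had the highest median rate of all genes (0.271%, against 0.202 and 0.203%). With each library centred on its median, on the log2 scale, replicate 1 was the lowest of the 3 for both, with 4.38 against 4.70 and 4.66 for AREG and 1.07 against 1.38 and 1.33 for EREG.

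AREG and EREG lie on chromosome 4 at chr4:75310853-75320722 and chr4:75230862-75254466, and their promoters are shown because the total mRNA of both followed the replicate number. The promoters are from RefSeq on GRCh38.p14, 250 bases before to 50 after the start, at chr4:74444886-74445185 for AREG and chr4:74364895-74365194 for EREG, both on the plus strand. Capitals mark the AP-1 motif TGANTCA, the cAMP response element TGACGTCA and the TEAD motif GGAATG, each searched on both strands. No 2 sites found in these genes overlap.
AREG: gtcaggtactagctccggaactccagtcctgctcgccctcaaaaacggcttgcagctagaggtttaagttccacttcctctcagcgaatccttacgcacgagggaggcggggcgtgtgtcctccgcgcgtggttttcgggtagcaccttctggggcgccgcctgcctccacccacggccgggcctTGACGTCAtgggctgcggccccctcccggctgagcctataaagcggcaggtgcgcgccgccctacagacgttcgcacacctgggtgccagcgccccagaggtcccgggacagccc
EREG: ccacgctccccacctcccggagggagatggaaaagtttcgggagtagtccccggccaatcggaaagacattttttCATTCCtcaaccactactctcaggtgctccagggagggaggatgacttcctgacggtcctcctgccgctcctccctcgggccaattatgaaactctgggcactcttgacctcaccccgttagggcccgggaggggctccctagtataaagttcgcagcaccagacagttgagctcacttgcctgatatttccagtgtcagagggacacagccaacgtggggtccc

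AREG held TGACGTCA 65 bases before its start, a motif found in 1.85% of 35116 promoters. EREG held GGAATG on the reverse strand 175 bases before its start (14.0% of promoters), and ERBB2 held TGANTCA 222 bases before its start (7.71%). EGFR has 2 entries, of which the second held TGANTCA at 232 and 136 bases and GGAATG at 114 bases before its start, and the first none. HBEGF, BTC, ERRFI1 and both entries of TGFA held none of the 3 motifs in this window. The promoter of ERBB3 was not analysed here.

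The comparison of IAA with DMSO, both with 4sU, asks whether loss of the JUN protein changed newly made or total mRNA of these genes. With 1 IAA library there is no replicate check and no p-value. A gene was counted as outside when its IAA value fell beyond the range of the 3 DMSO libraries and differed from their mean by 1 log2 unit or more. In the conversion rate, with each library centred on its median, 0 of 8 genes of the family were outside, against 20.7% of 11716 genes. The same measure put 1 DMSO library outside the other 3 labelled libraries in 2671, 2504 and 2376 genes for replicates 1, 2 and 3, against 2425 for IAA. In total mRNA 0 of 8 were outside, against 0.141% of 11371 genes (16 genes), and the DMSO libraries gave 31, 120 and 7. Of the family, ERBB2 and ERBB3 were outside in the rate for DMSO replicates 2 and 3. AREG was outside in total mRNA for DMSO replicate 1.

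**Figure D4:**
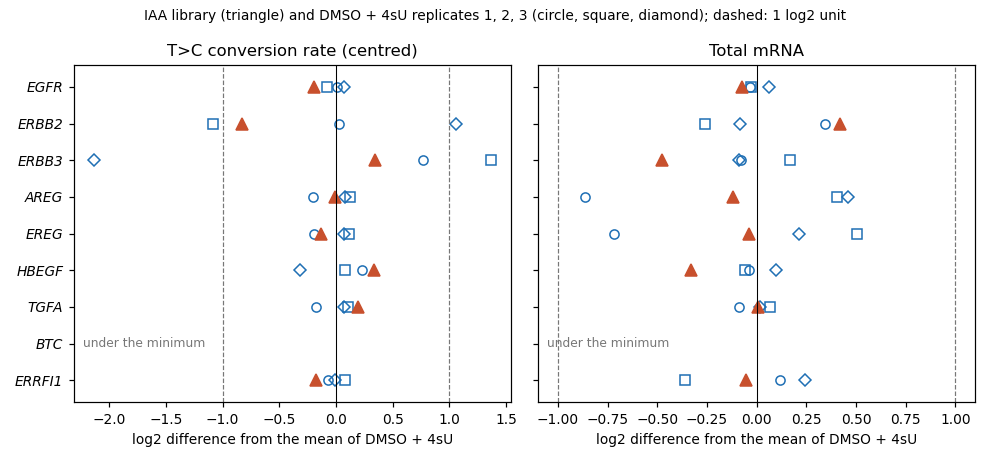
log2 difference of the IAA library (triangles) and of each DMSO library (open symbols) from the mean of the 3 DMSO libraries (horizontal axes), for the centred conversion rate, left, and for total mRNA, right. Dashed lines mark 1 log2 unit. Each triangle lies between the dashed lines, and ERBB2 and ERBB3 show the widest spread of DMSO libraries in the rate.

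AREG had a rate of 7.21% and 7.28 CPM with IAA, and EREG 0.616% and 49.6 CPM. The centred rate and the total of both were within the range of the DMSO libraries. The lower end of that range was DMSO replicate 1 for both genes and both measures. Without it both genes were below the range, by less than 1 log2 unit from the mean. The log2 differences were then -0.11 for AREG and -0.23 for EREG in the centred rate, and -0.55 and -0.40 in the total. Without DMSO replicate 2 or 3 both stayed within the range. Without centring the AREG rate was above the range, by 0.16 log2 units from the DMSO mean, and with the mean over distinct intervals by 0.22. HBEGF had a rate of 3.26% and 47.2 CPM. The log2 difference from the DMSO mean was 0.34 in its centred rate and -0.33 in its total, the first above and the second below the DMSO range. The product of its rate and CPM differed by 0.07 log2 units. TGFA had a rate of 0.364%, with a centred difference of 0.20, above the DMSO range. Its total was 99.6 CPM. With TMM sizes the total differed by 0.01 log2 units, within the DMSO range, and without TMM by 0.09, above it.

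Among the receptors, EGFR had 0.319% and 99.0 CPM with IAA, a difference of -0.20 log2 units in the centred rate and -0.07 in total mRNA, both below the DMSO range. The difference in the rate was -0.03 without centring and 0.54 with the mean over distinct intervals, both inside the range. That in the total was 0.01 without TMM, also inside the range. ERBB2 had 0.0779% and 17.0 CPM, the highest total of the 7 libraries, 0.42 log2 units above the DMSO mean. Its rate had a log2 difference of -0.83 and was inside the DMSO range. Without DMSO replicate 2, the lowest, ERBB2 was outside in the rate with a log2 difference of -1.37. ERBB3 had 0.289% from 57 reads and 2.84 CPM, the lowest total of the 7 libraries, with log2 differences of 0.35 in the rate, inside the DMSO range, and -0.48 in the total, below it. The sign in the rate rests on DMSO replicate 3, which is at 0. Without it the difference was -0.72, below the range. With that library kept, the product of rate and CPM differed by -0.38, inside the DMSO range. ERRFI1 had 1.41% and 10.7 CPM, with differences of -0.17, below the DMSO range, and -0.05, inside it. Without centring its rate differed by -0.01. BTC was under the minimum for both measures. JUN mRNA was outside in the total, 1.21 log2 units higher with IAA, and its rate of 2.97% differed by 0.11.

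Other genes of the pathway were described through 4 lists. Of 6 further family members, ERBB4 and EGF had at most 0.346 CPM. EPGN was the only one of the list with a test of the rate, and it rose from a mean of 0.0514% to 0.536% ± 0.092 (SD, n = 3), with a log2 change of 2.54 (limma, adjusted p = 0.0022), and its IAA rate was 0.292%, a centred log2 difference of -0.93 from DMSO. The counts below stand beside the 50.4% of all genes tested that had a higher rate. Of 5 genes for ligand shedding 4 were tested and 1 was higher in the rate, the protease ADAM17 (log2 change 1.29, adjusted p = 0.033). Of 26 adaptors and kinases 24 were tested and 11 were higher. Among the best counted of these were the kinase MAP2K1 (log2 change 1.37) and the adaptor GRB2 (1.07), with labelled rates of 0.266 and 0.191%. Of 15 genes for receptor restraint and turnover 14 were tested and 9 were higher, among them the adaptor SH3KBP1 (log2 change 0.68), the phosphatase PTPN1 (1.24) and the ubiquitin ligase CBL (1.38). Their labelled rates were 0.111, 0.197 and 0.289%.

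The median log2 change of the rate was 1.06 for the adaptors and kinases and 1.36 for receptor restraint and turnover, beside 1.25 for all genes tested. No gene of the 4 lists was called in total mRNA by limma, of 3, 5, 25 and 14 tested, beside 1.71% of all genes called lower and 0.0% higher. In the IAA library no gene of the lists was outside in total mRNA, and 9 of the 46 measured were outside in the rate (NRG2, RHBDF1, RHBDL2, GAB1, PLCG1, PIK3CA, CBLB, LRIG1 and SOCS4), beside the 20.7% of all genes. SOCS4 was the best counted of these with 423 reads on average, and its rate was 0.571% ± 0.232 (SD, n = 3) with DMSO and 1.38% with IAA. CBLB fell outside in the other direction with 60.3 reads on average, from 1.68% ± 0.442 (SD, n = 3) to 0.178%.

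The genes most alike in total mRNA over the 7 libraries were found by Pearson's r of log2(CPM + 1), among genes with at least 10 CPM on average. They were NIP7 and MICAL2 for EGFR (r = 0.972 for both), AP3B1 and NACA2 for ERBB3 (0.978 and 0.964), JKAMP and DERL1 for AREG (0.995 and 0.990), INHBA and PPP1R3B for HBEGF (0.981 and 0.978), and MIS12 and BHLHE40 for ERRFI1 (0.983 and 0.979). With about 6875 genes compared over 7 libraries that share their depth and their 4sU groups, values of this size are a description. EREG had r = 0.788 with AREG, only rank 994 of the 6875 genes compared with it.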

How the data were processed

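SLAM-Seq libraries (QuantSeq 3′ FWD kit) were processed by the authors with the nf-core slamseq workflow, and the processing notes name hg19. Conversion rates are deposited as a fraction (C reads among T positions), 1 row per RefSeq transcript and 3′ interval. CPM were deposited beside them as a signal scaled to library size. All non-zero CPM were whole multiples of 1 read (100%, tolerance 0.02), which gave reads and library totals. The coverage of T positions behind a rate is unknown, so no counting interval is given for rates. RefSeq identifiers were named through a GRCh38.p14 table (97.7% of rows). Of the per-sample columns 0 were left unused.

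For each gene the interval with most reads was used. The mean of rates or sum of reads over distinct intervals had been planned as the main value and became the alternative after the data were seen, because intervals without reads hold a rate of 0 and overlapping intervals repeat reads (3 intervals of ERBB2 hold the same values).

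limma (3.58.1, R 4.3.3; trend, robust) was fitted over all genes to log2(rate + 0.0005), for genes whose rate exceeded 0 in 3 or more of the 6 libraries, and to log2(CPM + 1) with TMM sizes from edgeR (4.0.16), with at least 1 CPM in at least 3. Tests were two-sided with Benjamini-Hochberg adjustment at 0.05. The planned tests of IAA against DMSO were not run, as the 3 IAA columns were identical. There, genes needed a rate above 0, or at least 1 CPM, in 2 of 4 libraries. DESeq2 (1.42.0) and edgeR's quasi-likelihood test on recovered reads, other pseudocounts, filters and left-out libraries were alternatives. The fits were tested on simulated data. The study compared labelled reads with DESeq2, but those reads are not used here.

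Same-numbered libraries with and without 4sU deviated together in total mRNA (correlations 0.41, 0.33 and 0.50 over 7008 genes), so the numbers pair them there. In the rates they did not.

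The genes, lists and named genes (all 9, JUN, called list genes up to 3 per list, and the 2 genes most alike to 5 of them) were chosen with earlier results of these data known. A list gene that this rule would name is not reported here. Tables were handled in pandas 2.3.3 and scipy 1.17.1 under Python 3.11.15.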

Additional observations from a re-analysis of the deposited data

How the results depend on the processing

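The 6 genes with a higher conversion rate were called under each alternative in which they were tested, except EGFR with the mean over distinct intervals. AREG, with 143 reads on average, was not tested with a minimum of 200 reads or with a rate above 0 in all 6 libraries, which left 5 genes called. Leaving out each library in turn gave 6 to 7 of the family and 4017 to 4924 of all genes with a higher rate. With the replicate block, the numbers as a block, 6 of the family and 4525 of all genes had a higher rate, and 245 genes had lower total mRNA. The block changed no call of the family. In the rates the numbers did not pair the libraries (correlations -0.015, -0.014 and 0.00078).

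In total mRNA DESeq2 called 400 genes lower and 3 higher, 2 of the family among the lower. Without a filter on CPM 2 genes were higher. Leaving out each library gave 48 to 229 genes lower and 0 to 1 higher, with 0 of the family in each case; the fewest were left without no 4sU replicate 2. For IAA, a pseudocount of 0.002 gave 1432 genes outside in the rate. CPM without TMM gave 26 genes outside in total mRNA, a sum over the distinct intervals 24, and a pseudocount of 0.25 gave 57. Without a DMSO library 2852 to 3064 genes were outside in the rate (0 to 1 of the family, ERBB2 without replicate 2) and 12 to 103 in total mRNA, 103 of them without replicate 1. The causes were not tested.

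Of 327 values of single genes under other settings, 310 kept their direction and side of the threshold or moved less than the SD between DMSO libraries. ERBB2 had a log2 change of -0.04 in the rate with the mean over intervals, where its call was absent as before. Depth limits BTC, ERBB3, AREG and ERBB2 most, with at most 340 reads per library.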
